A study of Homo sapiens and Mus musculus with 12 samples.

Results

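LSD1 (KDM1A) is a histone demethylase that removes methyl groups from lysine 4 of histone H3. It has no sequence-specific DNA binding of its own and is brought to chromatin by the CoREST complex and by DNA-binding repressors such as GFI1 and GFI1B, whose SNAG domain it recognises. LSD1 is also found at promoters, where lysine 4 methylation marks active genes. The regions described here were LSD1 peaks at promoters of K562 cells that had no GFI1 peak in the same cells. They were chosen by 2 measured lists and 1 annotation. A peak was selected from the LSD1 list of sg-NT cells when its summit was no more than 1000 bp from a protein-coding start (GENCODE release 44, GRCh38) and when it shared no base with a GFI1 peak of sg-NT cells. Of 6548 LSD1 peaks, 1603 met this rule, and 47 promoter peaks did not because they had a GFI1 peak. A further 4555 LSD1 peaks lay away from promoters without GFI1 and 343 lay there with GFI1.

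K562 is a human myeloid leukemia line with erythroid features that carries the BCR-ABL1 fusion. In the study it stably expressed Cas9 and received an sgRNA that was non-targeting (sg-NT) or directed against the LSD1 gene (sg-LSD1), as a model in which GFI1 binding could be followed after loss of LSD1. The K562 lists were of LSD1 and of GFI1 in the sg-NT line and of GFI1 in the sg-LSD1 line, which also carries Cas9 and the sgRNA vector. GFI1 and SPI1 (PU.1, a myeloid activator) were immunoprecipitated from THP1, a human monocytic leukemia line. With 1 library for each condition there were no replicates, no p-value was computed, and the 95% Wilson or Newcombe intervals given for shares and their differences cover counting error only. The GFI1 list of sg-NT cells was short, with 498 peaks, and a peak list holds only what passed its calling threshold. The paper ascribes the low number of GFI1 sites to technical limits of the antibodies at hand. "Without GFI1" therefore means that no GFI1 peak was called, and GFI1 below the threshold cannot be told apart from its absence. GFI1B was not immunoprecipitated, so whether these peaks hold it is not known.

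The sequences that follow show 60 bases of the GRCh38 reference, plus strand, at the summits of 7 of these peaks, with the summit in the middle. Capitals mark a core motif of a blood or promoter factor out of those counted further on. CAST and PFKM are shown because they had a GFI1 peak in the sg-LSD1 cells. Neither held the exact GFI1 core AATCAC in this window, and near matches were not searched for. BCL11A, CCND3 and FOXO3 are regulators of blood cells and of the cell cycle whose windows held a promoter core. KMT2A and NFE2 held none of the cores, and neither did windows at other members of CCND3 and FOXO3 that are not shown. Windows with a core are over-represented among those printed.

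CAST, chr5:96661889-96661948, GATA core: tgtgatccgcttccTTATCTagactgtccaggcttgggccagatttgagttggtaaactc
PFKM, chr12:48119685-48119744, NFY core: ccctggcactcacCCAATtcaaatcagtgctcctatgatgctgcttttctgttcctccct
BCL11A, chr2:60550524-60550583, SP/KLF core: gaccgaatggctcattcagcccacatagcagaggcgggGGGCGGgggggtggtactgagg
CCND3, chr6:41941910-41941969, NFY core: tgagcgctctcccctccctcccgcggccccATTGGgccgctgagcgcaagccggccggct
FOXO3, chr6:108560133-108560192, YY1 core: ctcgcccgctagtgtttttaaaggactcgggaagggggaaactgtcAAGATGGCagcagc
KMT2A, chr11:118436272-118436331, no core: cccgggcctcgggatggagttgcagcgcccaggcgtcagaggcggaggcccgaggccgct
NFE2, chr12:54295789-54295848, no core: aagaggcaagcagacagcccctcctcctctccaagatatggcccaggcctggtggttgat

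The LSD1 signal at these promoters was moderate. Across the 1603 peaks the fold over local background ranged from 3.45 to 52.7 with a median of 6.41, and the −log10 p from 5.01 to 153 with a median of 10.0. For promoter peaks with GFI1 the medians were 9.82 (fold) and 19.3 (−log10 p), and for LSD1 peaks without GFI1 away from promoters 7.0 and 11.3. The median width was 361 bp, against 532 bp with GFI1. These strengths come from the list that chose the members and are given as a description. The fold and p of each peak were solved for the number of fragments over its summit, which had a median of 12 and ranged from 6 to 93. At 499 of the 1603 peaks the local background was at the lowest value of the list, 0.63 fragments. A median of 12 fragments is a low depth, so a summit position and a fold are known only coarsely for a typical member, and peaks with equal fragment numbers often have equal folds.

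The strongest member lay in an intron of OSCAR, an immunoglobulin-like receptor of myeloid cells and osteoclasts, 218 bp downstream of the nearest start. Its fold was 52.7 and its −log10 p 153, from 90 fragments over a background of 0.727. VPS37D, an endosomal sorting subunit, had a fold of 43.0 with 69 fragments, with the summit at -372 bp from its start. EARS2, the mitochondrial glutamyl-tRNA synthetase, had a fold of 36.0 with 73 fragments. These 3 peaks all lay in CpG-rich sequence.

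PDE4A, a phosphodiesterase that degrades cAMP, had 4 members spread over 15622 bp. The peaks at 10416817 and 10431414 of chromosome 19 had the same fold of 37.9 from the same 61 fragments. The former lay in CpG-rich sequence and the latter did not. The remaining PDE4A peaks were weak, with folds of 7.11 and 6.33.

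Further strong members were at NUCKS1 (a chromatin-associated phosphoprotein, fold 30.8), CMIP (fold 31.7), RFX1 (an X-box transcription factor, fold 25.6), ZNF335 (a zinc-finger protein of a lysine 4 methyltransferase complex, fold 31.9) and SGSM1 (fold 27.8). They were followed by TJP3 (a tight junction protein, fold 24.3), CACTIN (fold 20.2), ARHGEF1 (fold 25.2), YIPF1 (fold 20.4) and FOXA3 (a forkhead factor, fold 21.9), and by CSRNP1 (fold 23.9), MKNK2 (a kinase of eIF4E, fold 20.9) and FCHO1 (fold 22.7). Of these, RFX1 had a THP1 GFI1 peak, with a fold of 23.1 and its summit at -331 bp from that of LSD1, and the others did not. UBE2L3, which encodes a ubiquitin-conjugating enzyme, had the most fragments of all members, 93, but over a background of 4.72, so its fold was 16.4.

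The summits gathered around the start and leaned upstream. Of the 1603, 928 (57.9%, interval 55.5 to 60.3) lay upstream of the nearest protein-coding start, and the median position was -76.0 bp with quartiles of -396 and 204 bp. The fullest bin of 100 bp was that just downstream of the start with 173 peaks, followed by that just upstream with 157. The bins from -500 to -400 and from -400 to -300 bp held 114 and 118 peaks, and the matching bins downstream 54 and 69. The rule bounds the distance at 1000 bp, so only the shape inside this range is a measurement. For promoter peaks with GFI1, 29 of 47 summits (61.7%, interval 47.4 to 74.2) were upstream.

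By annotation, 644 summits (40.2%) were in introns of protein-coding transcripts, 280 (17.5%) in UTR exons, 89 (5.55%) in coding exons and 590 (36.8%) outside protein-coding transcripts. Starts on both strands lay within 1000 bp of the summit for 163 members (10.2%, interval 8.78 to 11.7), against 12.9% of all canonical starts (interval 12.5 to 13.4). The latter were counted from the start itself and the members from the summit, so these shares are not on equal terms. A canonical start lay within 1000 bp of the summit for 1275 members (79.5%).

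The CpG content of the sequence was compared next. A window of 500 bp was called CpG-rich at a GC content of at least 50% and a ratio of observed to expected CpG of at least 0.6. Of the members, 56.6% met this (907 of 1603, interval 54.1 to 59.0), against 67.9% of windows centred on canonical starts. The share was 6.37% for LSD1 peaks without GFI1 away from promoters and 6.77% for windows 2000 bp from the summits. With only the members within 500 bp of a start it was 66.9%, and with canonical transcripts only 64.0%. For promoter peaks with GFI1 it was 42.6%, with a wide interval of 29.5 to 56.7.

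Sequence and position varied with peak strength. The members were ranked by −log10 p and divided into 4 strength groups of 400 or 401 peaks. The CpG-rich share was 45.8% in the strongest group (interval 40.9 to 50.6), then 53.1%, 63.1% and 64.3%, and the strongest and weakest groups differed by -18.6 points (interval -25.2 to -11.7). The share of summits within 250 bp of the start was 35.5% in the strongest and 46.1% in the weakest group, a difference of -10.6 points (interval -17.3 to -3.83). The share at a THP1 GFI1 peak, described further on, was 6.25% and 5.24%, and the interval of this difference (-2.28 to 4.35 points) includes 0.

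Core motifs of blood and promoter factors were counted on both strands in 50 bp at each summit. A match is a description of these letters and not of binding. The GFI1 core AATCAC was found at 32 members (2.00%, interval 1.42 to 2.80), against 2.31% of windows 2000 bp away and 0.853% of canonical starts. At the 47 promoter peaks with GFI1 it was found in 5 (10.6%, interval 4.63 to 22.6). The core AGATAA of GATA factors, the erythroid regulators, was found at 3.06% of members (interval 2.32 to 4.02). Windows 2000 bp away were close to this at 2.68% (interval 2.18 to 3.30), and canonical starts had 0.716%. LSD1 peaks without GFI1 away from promoters had 8.91% (interval 8.12 to 9.78). The RUNX core TGTGGT gave 2.43% of members against 6.45% of those other peaks, and the AP-1 core TGANTCA 0.936% against 2.55%.

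Of the cores typical of promoters, those of SP/KLF, ETS, YY1, NRF1, CRE and ZBTB33 had a lower share at the members than at starts. TATAAA had a higher share than at starts but a lower one than in windows 2000 bp away. The SP/KLF core GGGCGG was found at 9.79% of members (interval 8.43 to 11.3), against 18.3% of canonical starts and 2.53% of windows 2000 bp away. The ETS core CCGGAAG was found at 1.12% against 5.57% of starts, the YY1 core AAGATGGC at 0.312% against 1.63%, the NRF1 core GCATGCGC at 0.499% against 1.10%, and the CRE TGACGTCA at 0.0624% against 0.615%. The NFY core CCAAT was near equal at 3.93% and 3.57%, with 5.55% in windows 2000 bp away (interval 4.81 to 6.40). In those windows the ETS core stood at 0.187%, YY1 at 0.250%, NRF1 at 0.156%, and CRE and ZBTB33 at 0.0312% each. The SPI1 core GAGGAAGT was found at 4 members (0.250%), against 0.518% of starts and 0.312% of windows 2000 bp away. The E-box CACGTG was found at 15 members (0.936%, interval 0.568 to 1.54), against 1.47% and 0.655%. TATAAA was found at 17 members (1.06%), against 0.483% of starts and 2.74% of windows 2000 bp away. The ZBTB33 core CTCGCGAG was found at none of 1603, which allows a share of up to 0.239% (Wilson), against 0.345% of starts. Canonical start windows are centred on the start itself and member windows on the summit, so position within the promoter differed between these sets.

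GFI1 in THP1 cells was measured in other cells and took no part in the rule. Of the members, 110 shared a base with a THP1 GFI1 peak, or 6.86% (interval 5.72 to 8.21). Over all LSD1 peaks the share was 4.60%. It was 2.70% at LSD1 peaks without GFI1 away from promoters, 4.16 points lower than at the members (interval 2.91 to 5.57). At promoter peaks with GFI1 in K562 it was 44.7% (21 of 47), and the members were 37.8 points lower (difference -37.8, interval -51.9 to -24.5). The rule split these sets by GFI1 peaks of K562 cells, the same factor, so nothing is read from this difference. The peaks with GFI1 were also stronger for LSD1, with a median −log10 p of 19.3 against 10.0. The members made up 3.18% of the THP1 GFI1 peaks, and 12.1% of those whose summit was within 1000 bp of a start (108 of 896). GFI1 peaks of THP1 and K562 cells came from lists of very different length, and how much of each difference belongs to the cells or to the depth cannot be told apart.

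The members at a THP1 GFI1 peak had a median LSD1 −log10 p of 10.8, against 9.93 for the rest. They more often lay within 250 bp of the start (54.5%, interval 45.2 to 63.5, against 40.5%, interval 38.1 to 43.0). CpG-rich sequence was found at 69.1% of them (interval 59.9 to 77.0), against 55.7% (interval 53.1 to 58.2) of members without a THP1 GFI1 peak. Counted by gene, 162 of the 1489 genes with a member (10.9%, interval 9.40 to 12.6) had a THP1 GFI1 summit within 1000 bp of a start. Over all genes this was 4.38%, and over genes without a member 3.85%, a difference of 7.03 points (interval 5.52 to 8.74). Whether open promoters in general would differ in the same way was not tested.

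SPI1 peaks of THP1 cells shared a base with 14 members, or 0.873% (interval 0.521 to 1.46), close to the 0.779% over all LSD1 peaks. The difference from LSD1 peaks without GFI1 away from promoters was 0.237 points, with an interval of -0.211 to 0.855. At promoter peaks with GFI1 the share was 4.26% (2 of 47), a difference of -3.38 points (interval -13.4 to -0.246). Counted by gene, 2.28% of the genes with a member had a THP1 SPI1 summit within 1000 bp of a start (34 of 1489). Over all genes this was 1.24%, and over genes without a member 1.16%, a difference of 1.12 points (interval 0.458 to 2.03). Open promoters in general were not tested here either. Members with both a GFI1 and an SPI1 peak in THP1 cells were those at NFKB1 and RNF168. At NFKB1, which encodes the p50 subunit of NF-kappa-B, LSD1 had a fold of 5.36 and 10 fragments, THP1 GFI1 a fold of 14.9 and THP1 SPI1 a fold of 5.89, with the SPI1 summit 11 bp away from that of LSD1. At RNF168, a ubiquitin ligase of the DNA damage response, the folds were 4.30, 7.27 and 5.23.

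Of the members, 6 overlapped a GFI1 peak called in sg-LSD1 cells, or 0.374% (interval 0.172 to 0.814). The share over all LSD1 peaks was 1.08%, but this includes the peaks with GFI1 in sg-NT cells that the rule removed, so nothing is read from that difference. LSD1 peaks without GFI1 away from promoters gave 0.417%, with a difference of -0.0428 points (interval -0.352 to 0.422), and promoter peaks with GFI1 10.6% (5 of 47). These 6 sites thus had a GFI1 call in the cells with the sgRNA against LSD1 and none in sg-NT cells, each in 1 library of low depth. They were also 6 of the 17 promoter peaks of that list of 160. Counted by gene, 0.470% of the genes with a member (7 of 1489) had such a summit within 1000 bp of a start. Over all genes this was 0.0863%, and over genes without a member 0.0549% (10 of 18200). Whether open promoters in general would differ in the same way was not tested.

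Their genes were CAST, HNRNPD, PFKM, CORO1C, VPS50 and LYSET. CAST, the calpain inhibitor calpastatin, had an LSD1 fold of 12.5 from 21 fragments and a GFI1 fold of 7.12 from 11 fragments, with summits 9 bp apart. HNRNPD, an RNA-binding protein that acts on AU-rich transcripts, had 20 LSD1 and 14 GFI1 fragments with summits 38 bp apart. PFKM, the muscle phosphofructokinase, had 13 and 12 fragments, CORO1C, a coronin of the actin cytoskeleton, 12 and 17, VPS50, an endosome tethering subunit, 11 and 13, and LYSET, a factor of lysosomal enzyme sorting, 11 and 9. HNRNPD, PFKM, VPS50 and LYSET also had a GFI1 peak in THP1 cells, and CAST and CORO1C did not.

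The 1603 members were assigned to 1489 nearest genes, which were 7.56% of the protein-coding genes. Of these genes, 1387 had 1 member, 92 had 2 and 10 had 3 or more. Gene lists are described by their counts beside this 7.56%, without an enrichment test, and the intervals of short lists are wide. The lists were chosen with earlier results of these data known, so their shares have no independent weight.

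Genes of the LSD1-CoREST complex and its recruiters had a member at 3 of 18 (16.7%, interval 5.84 to 39.2). PHF21A, the subunit that reads unmodified lysine 4, had 3 members with folds of 11.1, 6.06 and 4.87 within 2251 bp. GFI1B, the GFI1 paralogue of erythroid cells, had a fold of 6.95 from 21 fragments with the summit at -14 bp from a start. GSE1, a CoREST-associated protein, had a fold of 7.47. Of the 14 NuRD genes, which encode the deacetylase and remodelling complex that LSD1 can join, none had a member (upper limit 21.5%).

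Of 20 genes for lysine 4 methyltransferases, demethylases and their partners, 4 had a member (20%, interval 8.07 to 41.6). SETD1A had the strongest, with a fold of 12. KMT2A (fold 7.94), MEN1 (its partner menin, fold 6.8) and KDM2B (fold 5.41) were weaker.

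Erythroid and stem cell transcription factors had a member at 8 of 30 (26.7%, interval 14.2 to 44.4). NFE2, the globin activator subunit, had the strongest with a fold of 8.92. GATA1, the main erythroid regulator, had a fold of 8.59 from 13 fragments at -441 bp from its start. FOXO3 had 3 members with folds of 7.92, 6.47 and 5.50. CBFB (fold 7.27), CBFA2T3 (fold 6.14), BCL11A (the fetal globin repressor, fold 6.14), MAFK (fold 5.84) and TCF3 (fold 5.52) completed the list.

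Genes of heme synthesis and iron handling, the pathway of the red cell, had a member at 8 of 22 (36.4%, interval 19.7 to 57.0). Like the others, this list was drawn up with earlier results of these data known, which gives its share no independent weight. PPOX (fold 9.98 from 17 fragments), UROD (fold 8.28) and CPOX (fold 5.67) encode enzymes of heme synthesis. SLC25A39, a mitochondrial carrier needed for heme formation, had a fold of 7.36 and shared bases with a THP1 GFI1 peak with a fold of 18.3, whose summit was 725 bp away. HMOX1 (fold 7.98) and HMOX2 (fold 5.49) degrade heme and FTH1 (fold 5.28) stores iron.

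Myeloid transcription factors had a member at 3 of 26 (11.5%, interval 4.0 to 29.0), at CEBPG (fold 15.9), IRF2 (fold 6.34) and CEBPA, the granulocyte regulator (fold 6.14 from 9 fragments, at -26 bp from its start). Of 24 myeloid surface and granule genes, 2 had a member (8.33%, interval 2.32 to 25.8), and 4.17% did at a −log10 p of at least 8. At CD33, a sialic acid-binding receptor, the fold was 7.29, at -787 bp from the start. At PRTN3, the neutrophil protease proteinase 3, which the study followed and which is named here outside the rule for named genes, the fold was 4.91 from 7 fragments, and it ranked 1432 of the 1603 members by −log10 p. This summit was 32 bp from the start of an alternative transcript. The paper reports sites near PRTN3 that both LSD1 and GFI1 occupied in sg-NT cells, with GFI1 lost there after LSD1 depletion. It also reports an intronic PRTN3 site with LSD1 only. By the rule this member shared no base with a GFI1 peak called in sg-NT cells, so it is not a site called for both. Whether it is the intronic site was not tested.

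Immediate-early genes had a member at 3 of 25 (12%), at SRF (fold 5.15), BTG2 (fold 4.51) and ATF3 (fold 5.29), and at none when a −log10 p of at least 8 was required. Cell cycle regulators had one at 5 of 33 (15.2%, interval 6.65 to 30.9), and at 9.09% with that requirement. CCND3, cyclin D3, alone had 4 members over 110527 bp, at starts of different transcripts, with folds of 7.53, 6.55, 5.77 and 5.17, and the peak with fold 6.55 had a THP1 GFI1 peak. MDM2 (fold 6.61), E2F5 (fold 7.42), CDKN2D (fold 4.87) and E2F6 (fold 4.91) had 1 member each.

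Housekeeping families ran from below to above the share of all genes. Cytosolic ribosomal protein genes had a member at 3 of 80 (3.75%, interval 1.28 to 10.5), at RPL23A, RPL6 and RPS29, and mitochondrial ribosomal protein genes at 7 of 78 (8.97%). Proteasome subunit genes had one at 5 of 39 (12.8%, interval 5.60 to 26.7) and aminoacyl-tRNA synthetase genes at 7 of 35 (20%, interval 10.0 to 35.9). ZNF-named genes stood at 33 of 509 (6.48%, interval 4.65 to 8.97), solute carriers at 30 of 367 (8.17%), clustered histone genes at 5 of 69 (7.25%) and HOX genes at 2 of 39 (5.13%). Histone and ribosomal protein genes have near-identical copies, and reads that fit several copies could be placed at any of them.

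Other genes with 3 members were INPP5B, HK1, PKM, ERCC1, TANGO2 and SLC29A1. PKM, the pyruvate kinase of glycolysis, had folds of 12.2, 11.0 and 6.14 over 3721 bp, and its peaks with folds of 11.0 and 6.14 had a THP1 GFI1 peak. HK1, the hexokinase at the start of glycolysis, had folds of 5.36, 5.52 and 4.89 within 1420 bp. ERCC1, a subunit of an excision repair nuclease, had 1 strong peak (fold 19.0, width 1297 bp) and 2 weak ones (folds 6.87 and 6.11). SLC29A1, a nucleoside transporter, had folds of 10.2, 6.20 and 6.19, and the peaks with folds of 6.20 and 6.19 had a THP1 GFI1 peak, the latter with its summit at the same base as that of LSD1. INPP5B, a phosphoinositide phosphatase, had folds of 6.82, 6.32 and 5.43, and TANGO2 6.41, 4.40 and 3.45. Peaks at the same gene share their neighbourhood and are not independent sites.

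The members were unevenly spread over chromosomes. On chromosome 19, 14.3% of the protein-coding genes had a member (205 of 1432, interval 12.6 to 16.2), on chromosome 16 13.4% (interval 11.3 to 15.9) and on chromosome 22 12.7% (interval 9.87 to 16.1). On chromosome 15 it was 3.74% and on chromosome X 0.469% (4 of 853, interval 0.183 to 1.20). The X list was short for LSD1 as a whole, with 24 peaks against 819 on chromosome 1. GATA1 was among the 4 genes on X.

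Local background moved with part of this pattern. Whether the peak caller took it from the input or from the ChIP library itself is not given in the sources used here. The median background under the members was 1.99 fragments on chromosome 22, and between 0.63 and 1.17 on the other chromosomes with members. Of 46 members with a background over 4 times the lowest value, 28 lay on chromosome 22 between 18001889 and 23180942, with backgrounds of 2.59 to 6.32 and a median fold of 4.79. UBE2L3 and TANGO2 lie in this stretch. As background, K562 carries extra copies of the region of chromosome 22 that includes BCR. The part of copy number in the count of members was not tested. On chromosomes 19 and 16 the median background was 0.739 and 0.956, within the range of the others.

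The peaks on either side of the limits of the rule are given as a description. Just inside 1000 bp were the peaks of CYRIB (999 bp, fold 19.5) and FBXL19 (995 bp, fold 11.2), and just outside those of TTLL1 (1001 bp, fold 8.59) and GDPD5 (1003 bp, fold 8.77). The members closest to a GFI1 peak of sg-NT cells were at SKIDA1, with a gap of 30 bp, and ANG, with a gap of 443 bp, both with a fold of 5.52. The promoter peaks left out for the fewest shared bases were at HNRNPR (16 bases, fold 3.88) and AHNAK (147 bases, fold 8.59). Few members were near the limit for GFI1, since 29 lay within 10000 bp of a GFI1 peak and the median gap was 967000 bp. The members with the lowest −log10 p were at MED30 (fold 4.12, −log10 p 5.05) and USP7 (fold 4.01, −log10 p 5.01).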

How the data were processed

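The peak lists of 5 ChIP-seq libraries were used. The input libraries and the murine H3K4me1 libraries were not used here. Per the labels and methods, the authors used Trim Galore 0.6.1 for trimming, Bowtie2 2.5.4 for mapping to GRCh38 and Picard 3.1.0 for removing duplicates. Peaks came from MACS2 2.2.9.1, run for each library (p threshold 1e-05), and blacklisted regions were removed. The deposited fold is the ratio of pileup to local background at the summit. Whether this background came from the input libraries or from the ChIP libraries is not given in the sources used here. The deposited −log10 p and −log10 q are the p-value and q-value of the peak caller.

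MACS2 writes fold as (pileup + 1) / (background + 1) beside a Poisson p, and the whole number of fragments that gives both was found for 100% of the LSD1 peaks within 0.00100 in −log10 p. Read totals were not used here. Overlap was at least 1 shared base and was checked with bedtools 2.31.1. Sequence came from GRCh38 and starts and genes from GENCODE release 44. Named peaks are the 20 members with the largest −log10 p, up to 30 at genes of the lists, those with a GFI1 peak of sg-LSD1 cells, those with both THP1 peaks, genes with 3 or more members, and the peaks on either side of each limit. Other list genes and PRTN3 are named outside this rule, after their values were seen.

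The members and gene lists were chosen with earlier results of these data known. Sequences printed are a choice from those at named members that touch no annotated exon. The alternatives were other strength, distance, overlap, transcript and window settings. A sequence feature and some of the sites that these rules select are not reported here. The methods were tested on simulated data. Tools were pysam 0.24.0, scipy 1.17.1, numpy 2.4.6 and matplotlib 3.10.9 in Python 3.11.15.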

Additional observations from a re-analysis of the deposited data

How the results depend on the processing

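No paired analysis was possible because each condition had 1 library, so no library could be left out either. The number of promoter peaks without GFI1 was 1603 and became 2617 with starts within 5000 bp. Within 1.5 times of it were the counts at a −log10 p of at least 8 (1114), within 500 bp (1138), with canonical transcripts only (1275), when GFI1 peaks within 500 bp also counted as overlapping (1601), and at a −log10 q of at least 2, which removed none. The median −log10 p was 10.0 and moved to 12.6 when peaks below a −log10 p of 8 were removed, which raises it by construction, and to 10.7 with 5000 bp. The share at THP1 GFI1 peaks was 6.86%, and 5.69% with 5000 bp, 8.93% when peaks within 500 bp counted and 5.12% when summits had to be at most 200 bp apart. For THP1 SPI1 the last 2 settings gave 1.62% and 0.312% in place of 0.873%. The CpG-rich share was 53.1% at a −log10 p of at least 8, 66.9% within 500 bp, 64.0% with canonical transcripts only and 53.8% in windows of 200 bp, in place of 56.6%. Windows of 200 bp for the motif cores gave 7.30% for GFI1, 10.6% for GATA and 33.3% for SP/KLF, and the wider windows hold more letters by construction. Such windows 2000 bp away gave 8.80%, 9.76% and 8.52%, and those at canonical starts 4.89%, 3.42% and 53.9%. LSD1 peaks without GFI1 away from promoters gave 9.37%, 28.4% and 8.61%. The share of all genes with a member was 5.33% at a −log10 p of at least 8 and 8.42% when every gene with a start within 1000 bp was counted. Where no construction is named, the cause of a change was not tested. Of the values under alternatives, 55 stayed within their interval or within 1.5 times of a count and 21 moved further. Differences between sets were not recomputed under each alternative. The median summit of the members had 12 fragments, and sites under the calling threshold are not in the lists.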
